A study of Mus musculus with 6 samples.

Results

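The 10 genes Pecam1, Cdh5, Kdr, Flt1, Vwf, Tek, Eng, Cldn5, Emcn and Lyve1 are used as a readout of endothelium, the cell layer that lines blood and lymph vessels, in small-intestinal adenomas of mice. They were taken by name as textbook endothelial genes, by no rule on their measured values, and are 10 of 46078 genes in the count tables. Earlier results of these data were known when they were chosen. Bulk RNA was sequenced from adenomas of mice of a C57BL6/SV129 background at 18 weeks of age. All mice were ApcMin/+, heterozygous for a mutation that truncates Apc, a brake on Wnt signalling, and so developed intestinal tumors. In 1 group of 3 mice the miR-34a, miR-34b and miR-34c genes were deleted (miR-34a/b/c-/-;ApcMin/+, called knockout here), and 3 further mice had them intact (miR-34a/b/c+/+;ApcMin/+, called wild-type here). Each library holds RNA of 3 tumors pooled from 1 mouse, so differences between tumors of a mouse are averaged within it, and the mouse is the replicate. The labels name no Cre or promoter and give the deletion as the genotype of the mouse, not of a cell type.

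Endothelial cells are held together by VE-cadherin, encoded by Cdh5, by the claudin encoded by Cldn5 and by PECAM-1, encoded by Pecam1. Their growth is driven by VEGF acting on the receptor tyrosine kinase encoded by Kdr, while the receptor encoded by Flt1 binds VEGF tightly, signals weakly and acts largely as a decoy. Vessel stability is set by angiopoietins acting on the Tie2 receptor, encoded by Tek, and by BMP9 and BMP10 acting through receptors assisted by the co-receptor endoglin, encoded by Eng. The clotting protein von Willebrand factor (Vwf), the sialomucin endomucin of capillaries and veins (Emcn) and the hyaluronan receptor of lymphatic endothelium (Lyve1) complete the list. Lyve1 is also made by some tissue macrophages, Vwf by megakaryocytes, and Pecam1 by platelets and several leukocytes.

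The deleted microRNAs act by pairing their seed, bases 2 to 8, with sites in the 3′ UTR of messenger RNAs. The mature sequences are shown because both carry the same seed, given in capitals (RefSeq, GRCm38.p6). The miR-34a-5p gene product maps to chr4:150068473-150068494 on the plus strand and that of miR-34b-5p to chr9:51103610-51103632 on the minus strand. miR-34c-5p is named only.

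mmu-miR-34a-5p: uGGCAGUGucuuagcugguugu

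mmu-miR-34b-5p: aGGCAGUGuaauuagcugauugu

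A match to this seed (CACTGCC, CACTGCCA or ACTGCCA, on the transcript strand) was found in the longest annotated 3′ UTR of 2 of the 10 endothelial genes, or 20%, against 3351 of 14693 tested genes with an annotated 3′ UTR, or 22.8%. The other 8 genes hold no such match in the 3′ UTR of any coding transcript. Tek has a match of 8 bases (8mer) at chr4:94874078-94874085 on the plus strand, 80 bases into a 3′ UTR of 978 bases. Eng has a match of 7 bases (7mer-m8) at chr2:32681810-32681816 on the plus strand, 249 bases into a 3′ UTR of 1108 bases. Both sites are printed with their flanks and with the matching bases in capitals, read from GENCODE M21 transcript sequences, with positions given on mm10. Whether either site is used was not measured.

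Tek site: agcaagccaccCACTGCCAagagatgtgat

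Eng site: gaaagacacggCACTGCCgtgcacaccca

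Library totals ran from 26375035 to 38354355 counts, of which the 10 genes took 0.0258% to 0.0556%. The limit that a count of 0 would allow, 3 counts, is 0.0720 to 0.106 CPM (a gene's count relative to the total of its library, on the usual CPM scale of RNA-seq, with totals scaled by TMM), and each of the 10 genes exceeded it in all 6 libraries. Counts of sex-linked genes placed 1 male in each group, knockout mouse 2 and wild-type mouse 3. On the first principal component of all tested genes (40.8% of the variance), knockout mice 1 and 3 lay at -53.0 and -49.2, knockout mouse 2 at 27.1 and the wild-type mice between -0.28 and 58.5. The 12 epithelial genes on a marker list summed to 13011 to 19222 CPM per library and the 10 endothelial genes to 271 to 511 CPM. In such bulk RNA, a smaller number of endothelial cells and less RNA per endothelial cell cannot be told apart.

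Between genotypes, 9 of the 10 genes had a fitted log2 fold change above 0 in knockout adenomas, and Emcn had one below 0. Among all 17254 genes tested, 51.1% were above 0. The median log2 fold change of the 10 was 0.42, a difference of knockout minus wild-type, against 0.01 over all tested genes. None of the 10 passed the test (edgeR quasi-likelihood, Benjamini-Hochberg adjusted over all tested genes at 0.05), for which the background was 16 genes or 0.0927%. The lowest adjusted p among the 10 was 0.793. DESeq2 called 0.638% of all genes and again none of the 10, with a lowest adjusted p of 0.284. At an unadjusted p below 0.05 in edgeR, Cdh5, Flt1 and Vwf were higher in knockout, 3 of 10, where 3.27% of all tested genes were higher at that level. DESeq2 and limma-voom also gave these 3. Flt1 kept such a p in every fit, but Cdh5 did not without knockout mouse 3, wild-type mouse 2 or wild-type mouse 3. Vwf did not without knockout mouse 3. In females alone neither Cdh5 nor Vwf had one, while Pecam1 and Eng did. The same 3 genes had every knockout mouse above every wild-type mouse, a pattern that 5.86% of all tested genes showed. Genes of this kind numbered 5 without knockout mouse 1 and 5 without knockout mouse 2, and 6 without wild-type mouse 3, with backgrounds of 9.91%, 20.4% and 10.6%. Cdh5, Flt1 and Vwf were among them each time, but apart from small shifts in scaling this was fixed in advance. Groups that do not overlap with all mice cannot overlap with fewer, so these counts are no check of the 3 genes.

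**Figure D1:**
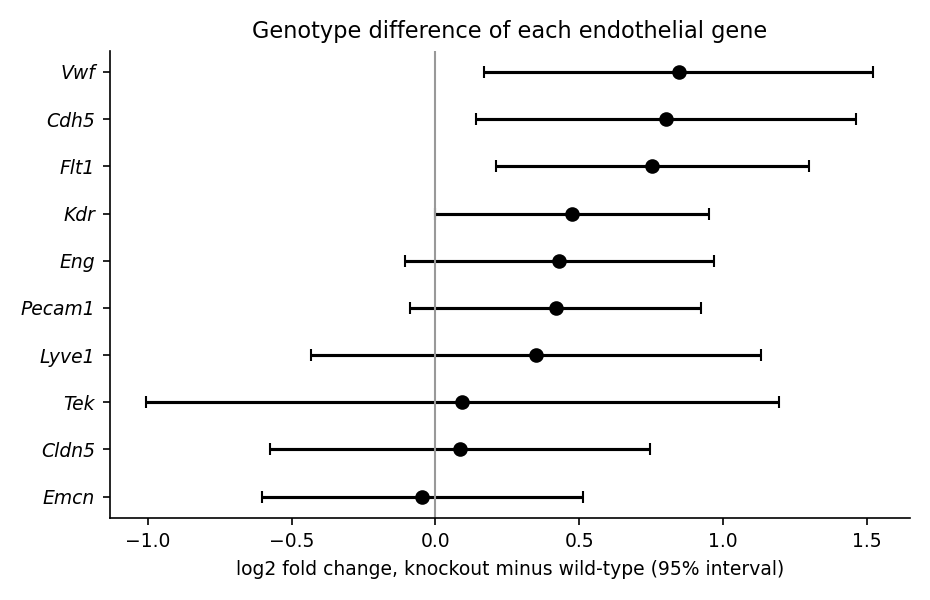
Log2 fold change (knockout minus wild-type, horizontal axis) of each of the 10 endothelial genes, with bars for the 95% confidence interval of the edgeR fit. Estimates run from -0.045 for Emcn to 0.85 for Vwf, and the intervals of Cdh5, Flt1 and Vwf lie above 0 before adjustment.

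Summed over the 10 genes, the knockout mice stood at 422, 368 and 511 CPM and the wild-type mice at 331, 271 and 296 CPM. When each gene was instead centred on its own mean over the 6 libraries, so that abundant genes did not dominate, the mean over the 10 genes was 0.15, 0.024 and 0.45 in the knockout mice and -0.21, -0.30 and -0.11 in the wild-type mice on the log2 scale. Knockout mouse 3 was the highest library for 7 of the 10 genes, and on this mean knockout mouse 2 lay closest to the wild-type range. Without Cdh5 and Tek, the mean over the remaining genes was 0.047, 0.13 and 0.45 in the knockout mice. In the wild-type mice it was then -0.34, -0.29 and 0.00054, so knockout mouse 1 lay closest to the wild-type range. The lowest library was a wild-type mouse for 8 genes, the exceptions being Tek, lowest in knockout mouse 2, and Lyve1, lowest in knockout mouse 1. The difference rested unevenly on the mice: the median log2 fold change was 0.27 without knockout mouse 3, when only Flt1 had an unadjusted p below 0.05 (higher, as did 1.45% of all genes), and 0.27 without wild-type mouse 1. In the 4 female libraries alone it was 0.61, with a lowest adjusted p of 0.156 in edgeR and none of the 10 called.

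**Figure D2:**
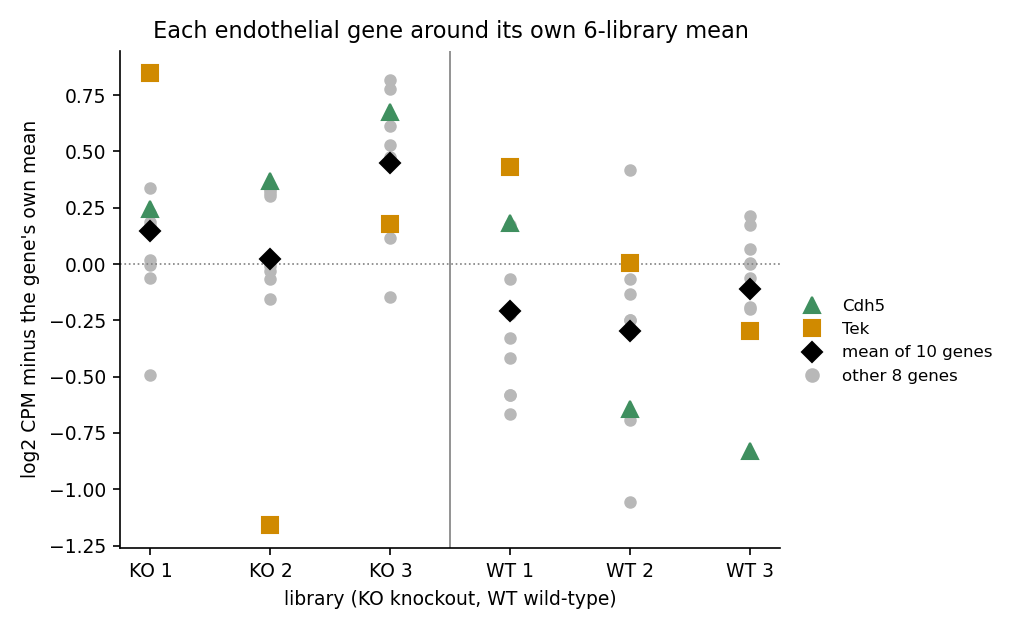
Log2 CPM of each endothelial gene minus that gene's own mean over 6 libraries (vertical axis), by library (KO knockout, WT wild-type); grey circles are single genes, triangles Cdh5, squares Tek and black diamonds the mean of the 10. The means of the knockout mice (0.024 to 0.45) lie above those of the wild-type mice (-0.30 to -0.11), while Tek runs from the top in knockout mouse 1 to the bottom in knockout mouse 2.

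The VEGF receptors come first. Flt1 (ENSMUSG00000029648, mm10 chr5:147561604-147726011, minus strand) stood at 39.1, 49.3 and 67.3 CPM in the knockout mice and at 33.6, 24.3 and 34.4 CPM in the wild-type mice. The lowest knockout mouse lay above the highest wild-type mouse. The means were 51.9 ± 14.3 and 30.8 ± 5.61 CPM (SD, n = 3 each), and the log2 fold change was 0.75 ± 0.23 (SE), 95% interval 0.21 to 1.30 and edgeR adjusted p 0.793. Flt1 had an unadjusted p below 0.05 in each of the main and alternative fits, including those without any single mouse. Kdr (ENSMUSG00000062960, chr5:75932827-75978458, minus strand), the main signalling receptor, stood at 29.96, 38.7 and 43.5 CPM in knockout and at 20.9, 28.5 and 31.3 CPM in wild-type. Wild-type mouse 3 lay above knockout mouse 1, so the groups overlapped. The log2 fold change of Kdr was 0.47 ± 0.20, with an interval that just reached below 0 (-0.0026 to 0.95) and an edgeR adjusted p of 0.793; it was 0.31 without wild-type mouse 1. Per kilobase of exon, the ratio of the decoy receptor Flt1 to Kdr was 0.873, 0.853 and 1.03 in the knockout mice and 1.08, 0.570 and 0.734 in the wild-type mice. These ratios overlapped, with the highest in wild-type mouse 1.

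Of the 10 genes of the VEGF axis (ligands, receptors and co-receptors, among them Kdr and Flt1), all 10 had a fitted value above 0, with a median log2 fold change of 0.43, 1 at an unadjusted p below 0.05 (Flt1) and none called. The most abundant of them, the ligand Vegfa, had a knockout mean of 110 ± 19.6 CPM and a wild-type mean of 102 ± 17.5 CPM (SD, n = 3 each), with a fitted log2 difference of 0.10 ± 0.19. Vegfa is a gene of many cell types, and its knockout and wild-type mice overlapped.

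Tek (ENSMUSG00000006386, chr4:94739289-94874976, plus strand), the angiopoietin receptor and the gene with the 8mer site, stood at 101, 25.2 and 63.6 CPM in the knockout mice and at 75.8, 56.5 and 45.8 CPM in the wild-type mice. Knockout mice gave both its highest and its lowest value, a 4.02-fold range. The means were 63.4 ± 38.04 and 59.4 ± 15.2 CPM (SD, n = 3 each), with a log2 fold change of 0.094 ± 0.46, 95% interval -1.01 to 1.19 and edgeR adjusted p 0.970. The sign of the Tek estimate turned in several fits: it was -0.43 without knockout mouse 1 and 0.47 without knockout mouse 2. Among the 7 genes of the angiopoietin and Tie pathway, Tek included, 6 had a fitted value above 0 and 1 below, with a median of 0.31, 2 at an unadjusted p below 0.05 and none called. The smallest p in that list belonged to Ptprb, which encodes the phosphatase VE-PTP that dampens Tie2 and VE-cadherin phosphorylation. Ptprb stood at 23.9, 27.3 and 37.6 CPM in knockout and at 18.7, 20.95 and 21.2 CPM in wild-type, without overlap, a log2 fold change of 0.55 ± 0.19 and an edgeR adjusted p of 0.793.

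Eng (ENSMUSG00000026814, chr2:32646595-32682669, plus strand), the BMP9 co-receptor and the gene with the 7mer-m8 site, stood at 43.4, 37.8 and 55.7 CPM in the knockout mice and at 24.3, 36.9 and 40.4 CPM in the wild-type mice. Wild-type mouse 3 lay above knockout mouse 2. The log2 fold change was 0.43 ± 0.23, 95% interval -0.11 to 0.97, edgeR adjusted p 0.793. It was 0.23 without wild-type mouse 1 and 0.25 without knockout mouse 3. Eng shares 61 exon bases with Fpgs on the opposite strand, and with no strand setting recorded for the counting, reads of those bases cannot be assigned; Fpgs had 3533 counts over all libraries and Eng 8096. Of 12 genes of the endoglin and BMP9 pathway, 10 could be tested, 6 with a fitted value above 0 and 4 below, with a median of 0.080, 1 at an unadjusted p below 0.05 and none called. The gene for BMP9, Gdf2, had no count in any library. The smallest p was that of Tmem100, a membrane protein induced by BMP9 in endothelium, at 2.22, 1.32 and 1.58 CPM in knockout and 0.342, 0.755 and 0.700 CPM in wild-type. These groups did not overlap, and the log2 fold change was 1.503 ± 0.40 with an edgeR adjusted p of 0.790. The most abundant gene of that list, the BMP target Id3, had means of 150 ± 37.6 and 150 ± 28.5 CPM (SD, n = 3 each), but epithelial and stromal cells also express it.

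Among the junction genes, Cdh5 (ENSMUSG00000031871, chr8:104101625-104144502, plus strand) stood at 103, 112 and 139 CPM in the knockout mice and at 98.7, 55.5 and 48.8 CPM in the wild-type mice. The groups did not overlap, but knockout mouse 1 and wild-type mouse 1 lay close together. Means were 118 ± 18.6 and 67.7 ± 27.0 CPM (SD, n = 3 each), the log2 fold change was 0.80 ± 0.28, the 95% interval 0.14 to 1.46 and the edgeR adjusted p 0.793. Pecam1 (ENSMUSG00000020717, chr11:106654217-106750628, minus strand) stood at 42.5, 36.2 and 49.5 CPM in knockout and at 24.3, 30.6 and 41.0 CPM in wild-type. Wild-type mouse 3 lay above knockout mouse 2, and the log2 fold change was 0.42 ± 0.21, 95% interval -0.087 to 0.92, edgeR adjusted p 0.793. It was 0.24 without wild-type mouse 1 and 0.64 without wild-type mouse 3. Cldn5 (ENSMUSG00000041378, chr16:18776847-18778260, plus strand) was the rarest, with 56 to 82 counts per library and 436 in all. It stood at 2.75, 2.08 and 1.97 CPM in knockout and at 2.45, 1.76 and 2.18 CPM in wild-type. The groups overlapped, and a log2 fold change of 0.085 ± 0.28 came with an interval of -0.58 to 0.75, which still holds the estimates of Pecam1, Kdr and Eng.

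Vwf (ENSMUSG00000001930, chr6:125546774-125686679, plus strand) had the largest estimate of the 10. It stood at 45.8, 50.1 and 70.8 CPM in the knockout mice and at 38.4, 19.4 and 35.0 CPM in the wild-type mice, without overlap. Its log2 fold change was 0.85 ± 0.29, 95% interval 0.17 to 1.52, edgeR adjusted p 0.793. Because megakaryocytes also make Vwf, a list of 10 platelet genes was read beside it. They summed to 65.9, 48.5 and 76.8 CPM in knockout and to 36.0, 37.9 and 64.4 CPM in wild-type. Of these platelet genes 7 could be tested, 5 with a fitted value above 0 and 2 below, with a median of 0.54. At an unadjusted p below 0.05, 2 were higher (3.27% of all tested genes were), and none was called. Their part in the Vwf values was not tested. None of the 10 platelet genes was without counts, but the integrin gene Itgb3, which other cells express too, was their most abundant gene (33.8 ± 11.7 against 16.8 ± 6.16 CPM, SD, n = 3 each).

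Emcn (ENSMUSG00000054690, chr3:137341067-137432185, plus strand) was the single gene of the 10 with an estimate below 0. It stood at 9.20, 8.16 and 9.86 CPM in the knockout mice and at 7.24, 12.1 and 8.70 CPM in the wild-type mice, so that wild-type mice held both ends of its range. The log2 fold change was -0.045 ± 0.24, 95% interval -0.60 to 0.51, edgeR adjusted p 0.971. It was 0.19 without wild-type mouse 2 and 0.041 when libraries were scaled by their totals alone, so its sign was not stable.

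Lyve1 (ENSMUSG00000030787, chr7:110850607-110862953, minus strand) stood at 4.86, 8.65 and 10.5 CPM in the knockout mice and at 5.13, 5.76 and 7.95 CPM in the wild-type mice. Knockout mouse 1 was the lowest of all 6, and the log2 fold change was 0.35 ± 0.33, 95% interval -0.43 to 1.13, edgeR adjusted p 0.830. The estimate ran from 0.10 without knockout mouse 3 to 0.60 without knockout mouse 1, and was 0.21 without wild-type mouse 1 and 0.56 without wild-type mouse 3. A list of 12 macrophage genes summed to 143, 231 and 208 CPM in knockout and to 124, 192 and 195 CPM in wild-type. The lowest sum was that of wild-type mouse 1, followed by knockout mouse 1, and the part of macrophages in the Lyve1 values was not tested. Of 12 lymphatic genes (Lyve1 included), 11 could be tested, 7 with a fitted value above 0 and 4 below, with a median of 0.35, 1 at an unadjusted p below 0.05 and none called. The most abundant was Prox1, the lymphatic transcription factor, at 410, 141 and 499 CPM in knockout and 321, 184 and 185 CPM in wild-type. Prox1 is also expressed by some intestinal epithelial cells, and its groups overlapped. The smallest p, shared with the list of endothelial transcription factors, was that of Foxc2, a factor of lymphatic valves, at 0.952, 0.726 and 1.51 CPM in knockout and 0.280, 0.315 and 0.644 CPM in wild-type (edgeR adjusted p 0.793).

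**Figure D3:**
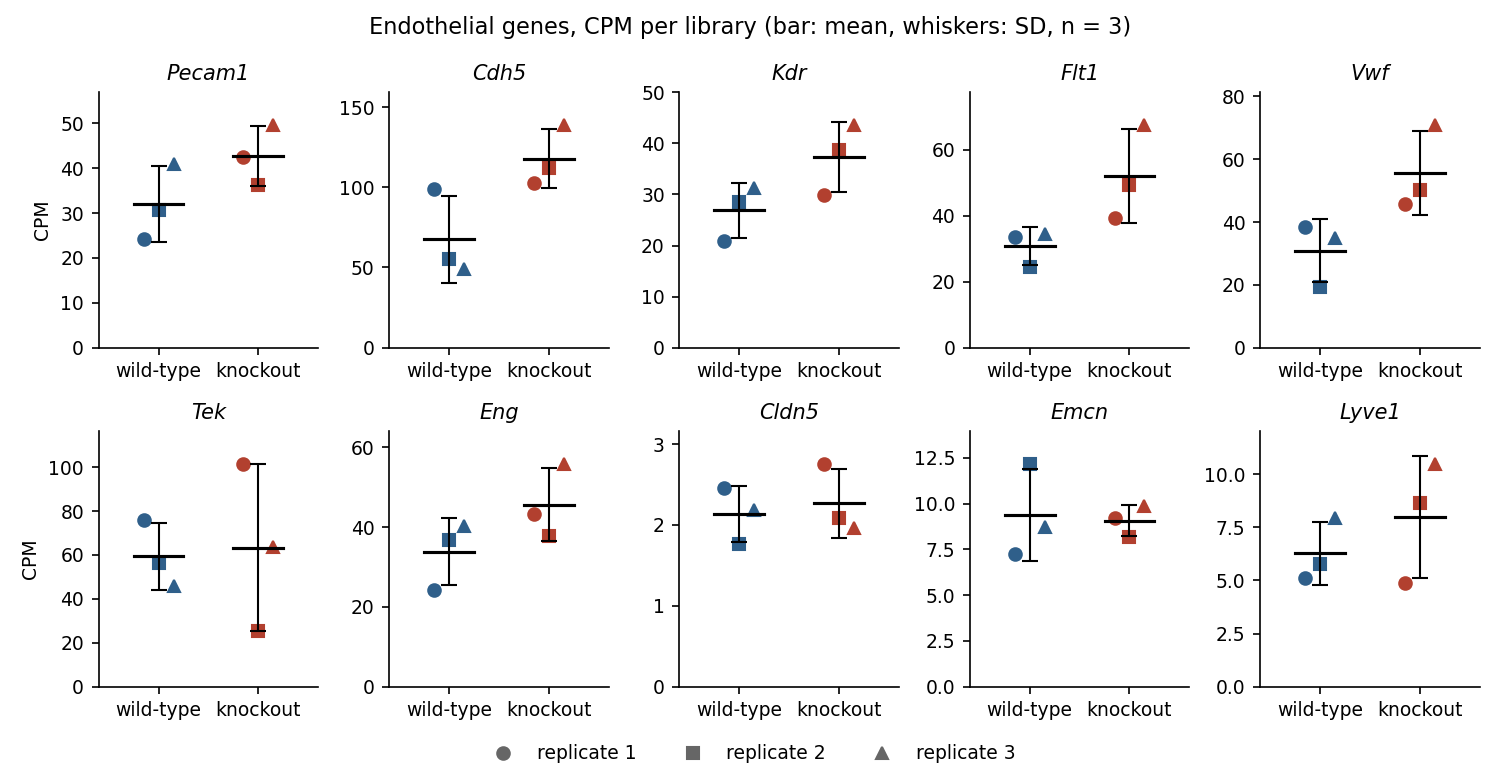
CPM of each of the 10 endothelial genes in every library (points; shape gives the replicate number) with the group mean (bar) and SD (whiskers, n = 3) for wild-type and knockout adenomas; each panel starts at 0 and has its own scale. The groups do not overlap for Cdh5, Flt1 and Vwf, and the knockout values of Tek span 25.2 to 101 CPM.

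The order of levels among the 10 genes was read per length, as CPM per kilobase of merged exons. The most abundant gene of each list and the sums over lists were taken in CPM, without regard to length. Cdh5 was highest at a mean of 22.1 (11.6 to 33.0 over the 6 libraries), followed by Tek at 13.0 (5.35 to 21.5), Eng at 9.82 (6.01 to 13.8) and Pecam1 at 5.999 (3.90 to 7.95). Kdr at 3.56, Flt1 at 3.06, Vwf at 2.69 and Lyve1 at 2.44 formed a middle group, and Emcn at 1.70 and Cldn5 at 1.55 were lowest. The ranges of all neighbours in this order overlapped across libraries. Within libraries, the upper neighbour was above the lower one in all 6 libraries for Cdh5 and Tek, Eng and Pecam1, Pecam1 and Kdr, and Flt1 and Vwf. Tek was above Eng in 3 of 6 libraries, so those neighbours had no set order, and the other neighbouring pairs kept their order in 4 of 6. With the longest transcript as length instead, Flt1 (5.998) stood above Kdr (5.43) and Emcn (2.62) above Lyve1 (2.47).

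**Figure D4:**
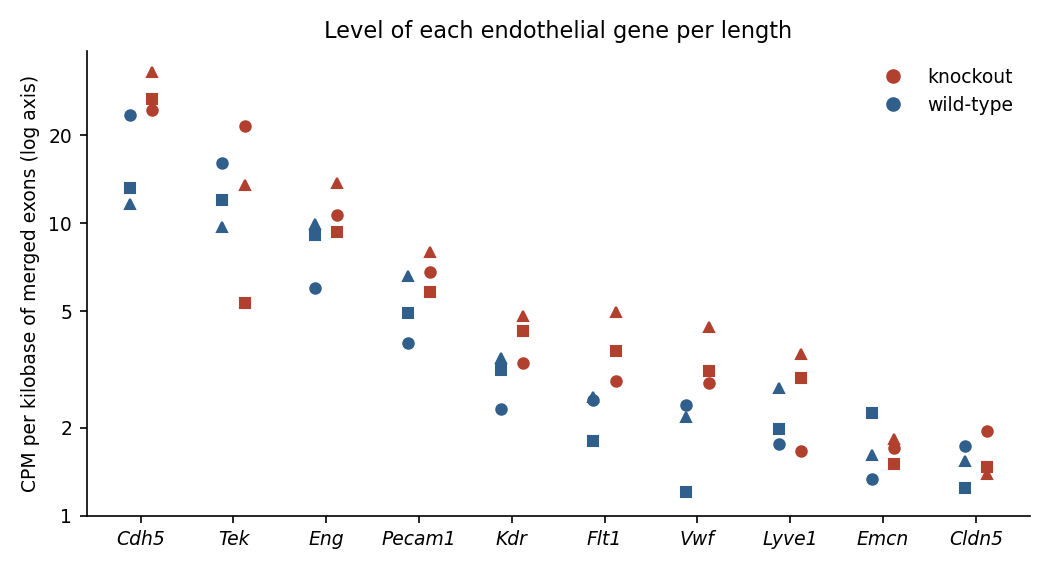
CPM per kilobase of merged exons (log axis) of the 10 endothelial genes in each of the 6 libraries (red knockout, blue wild-type; circle, square and triangle for replicates 1, 2 and 3), ordered by mean level. Cdh5 is highest at a mean of 22.1 and Cldn5 lowest at 1.55, and every gene overlaps its neighbour.

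A pair of genes made by the same cells in fixed amounts would keep 1 ratio in every library. The steadiest pair was Pecam1 and Eng, whose log2 ratio had an SD of 0.112 over the 6 libraries, a 1.22-fold range. Kdr and Eng followed at 0.192, and Flt1 and Vwf at 0.198, a 1.47-fold range. Pecam1 and Kdr stood at 0.212, and the paired VEGF receptors Kdr and Flt1 at 0.338. Tek was the least steady partner, with a median SD of 0.862 to the other 9 genes and a 7.15-fold range of its ratio to Lyve1. Cdh5 came next at a median SD of 0.624, whereas Kdr had the lowest at 0.379. These SDs describe 6 libraries and include the counting error of the rarer genes.

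The ratio of Cdh5 to Pecam1, per kilobase, was 3.59, 4.60 and 4.15 in the knockout mice and 6.02, 2.69 and 1.77 in the wild-type mice. The wild-type mice thus held both the highest and the lowest ratio between these junction genes. To ask whether the endothelial genes differed between genotypes relative to each other, the log2 ratio of each of the other 9 to Cdh5 was compared between groups with an exact two-sided permutation test, in which 3 mice against 3 can reach no p below 0.1. All 9 ratios overlapped between groups, and the lowest exact p was 0.2, adjusted 0.643 over the 9 ratios (Benjamini-Hochberg). The differences, knockout minus wild-type, ran from -0.95 for Tek to 0.02 for Vwf. For Emcn the difference was -0.88 and for Cldn5 -0.78, both with an exact p of 0.2. With a mouse left out, the Tek difference ran from -1.49 (knockout mouse 1) to -0.42 (knockout mouse 2) and that of Emcn from -1.35 (wild-type mouse 1) to -0.56 (wild-type mouse 2). Those of Pecam1, Kdr, Eng and Lyve1 lay furthest below 0 without wild-type mouse 1 (-0.91, -0.86, -0.94 and -0.998) and nearest to 0 without wild-type mouse 3 (-0.024, -0.063, -0.071 and -0.17), the mice with the highest and the lowest wild-type Cdh5. Their ratios therefore could not be shown to differ, nor could they be shown to be alike.

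The wider vascular programme was read from further lists of genes named for their role. Some lists share genes, so their counts are not separate results. Ptprb is on the pan-endothelial list and the angiopoietin and Tie list, and Podxl on the pan-endothelial and leukocyte adhesion lists. Each count is to be read against all tested genes, of which 3.27% were higher at an unadjusted p below 0.05 and 5.86% were higher without overlap. In a list of 24 other pan-endothelial genes, 23 had a fitted value above 0 and 1 below, with a median log2 fold change of 0.33. At an unadjusted p below 0.05, 7 were higher and none lower, and 12 had every knockout mouse above every wild-type mouse, but none was called. The most abundant of them, Podxl, a sialomucin of the vessel lumen that epithelium can also make, stood at 97.5, 88.1 and 111 CPM in knockout and 84.5, 42.3 and 60.2 CPM in wild-type, a log2 fold change of 0.67 ± 0.25. Of 12 genes of tip cells and sprouting, 11 were above 0 and 1 below, with a median of 0.67, 6 at an unadjusted p below 0.05, all higher, and none called. Among these, Igfbp3, which binds insulin-like growth factors, had the smallest p: it stood at 97.7, 81.9 and 124 CPM in knockout and 54.1, 50.9 and 64.1 CPM in wild-type, a log2 fold change of 0.84 ± 0.18 and an edgeR adjusted p of 0.581. The basement membrane collagen Col4a1 was the most abundant at 387, 265 and 579 CPM against 230, 120 and 285 CPM, with overlap; fibroblasts and mural cells also make it.

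Among 14 Notch and arterial genes, 12 were above 0 and 2 below, with a median of 0.38, 3 at an unadjusted p below 0.05 and none called. The Notch ligand Jag2 had the smallest p there, at 22.3, 18.2 and 21.4 CPM in knockout and 12.2, 11.01 and 9.40 CPM in wild-type. Its groups did not overlap, with a log2 fold change of 0.92 ± 0.17, but its edgeR adjusted p was 0.385 and epithelial cells express it as well. The most abundant, Efnb2, an ephrin of arterial endothelium, had a log2 fold change of 0.14 ± 0.14. Of 7 venous genes, 4 were above 0 and 3 below, with a median of 0.072 and none at an unadjusted p below 0.05; the most abundant was the ephrin receptor Ephb4 (log2 fold change 0.15 ± 0.19), and the smallest p was that of the adhesion molecule Vcam1 (0.36 ± 0.21). Of 18 endothelial transcription factors, 16 could be tested, 15 above 0 and 1 below, with a median of 0.24, 1 at an unadjusted p below 0.05 (Foxc2) and none called. The most abundant was Klf4 (202 ± 116 against 219 ± 23.0 CPM, SD, n = 3 each), which differentiated epithelium also expresses, and Etv2, a factor of embryonic endothelium, had no count in any library. Of 11 leukocyte adhesion genes, 10 could be tested, 8 above 0 and 2 below, with a median of 0.27, 2 at an unadjusted p below 0.05 and none called. The smallest p was that of the junctional adhesion molecule Jam3 (5.40 ± 0.63 against 3.39 ± 0.42 CPM, SD, n = 3 each).

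Genes of neighbouring cell types had estimates in the same direction as the endothelial genes. Of 10 mural genes (pericyte markers), 9 could be tested and all 9 were above 0, with a median of 0.69 and 5 higher at an unadjusted p below 0.05 (3.27% of all tested genes), and all 8 smooth muscle genes were above 0, with a median of 0.72 and 3 at that level. Of 10 fibroblast genes, 8 were above 0, with a median of 0.76 and 1 at that level. These medians exceeded that of the 10 endothelial genes, and none of these genes was called. Every knockout mouse lay above every wild-type mouse for 3 of 9 mural, 6 of 8 smooth muscle and 1 of 10 fibroblast genes. Among all tested genes that share was 5.86%. Smooth muscle genes summed to 562 to 661 CPM in knockout and 216 to 499 CPM in wild-type, and the pericyte proteoglycan Cspg4 stood at 7.93, 6.97 and 10.1 CPM against 5.37, 3.43 and 3.97 CPM (edgeR adjusted p 0.790). Mural genes summed to 585 to 974.7 CPM in knockout and 229 to 974 CPM in wild-type, a sum in which Anpep, on average its most abundant gene, is also a brush border enzyme. Fibroblast genes summed to 1637, 771 and 2795 CPM in the knockout mice and 1087, 462 and 1405 CPM in the wild-type mice, so knockout mouse 3, the highest for the endothelial genes, was the highest here as well, and wild-type mouse 2 was the lowest in both.

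Of 12 epithelial genes, 11 were below 0, with a median of -0.19, and they summed to 13011 to 16797 CPM in knockout and 14296 to 19222 CPM in wild-type. The intestinal transcription factor Cdx2 had the smallest p among them (108 ± 15.6 against 135 ± 11.7 CPM, SD, n = 3 each, edgeR adjusted p 0.793), and its groups did not overlap. Leukocyte genes summed to 92.4 to 118 CPM against 92.5 to 125 CPM, and erythroid genes, a sign of blood in the sample, to 45.4 to 203 CPM against 16.0 to 280 CPM. No marker of the mural, smooth muscle, fibroblast, epithelial, macrophage, leukocyte, platelet or erythroid lists was at 0 in all libraries. The part that the cell makeup of the pooled tumors had in the endothelial values was not tested.

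**Figure D5:**
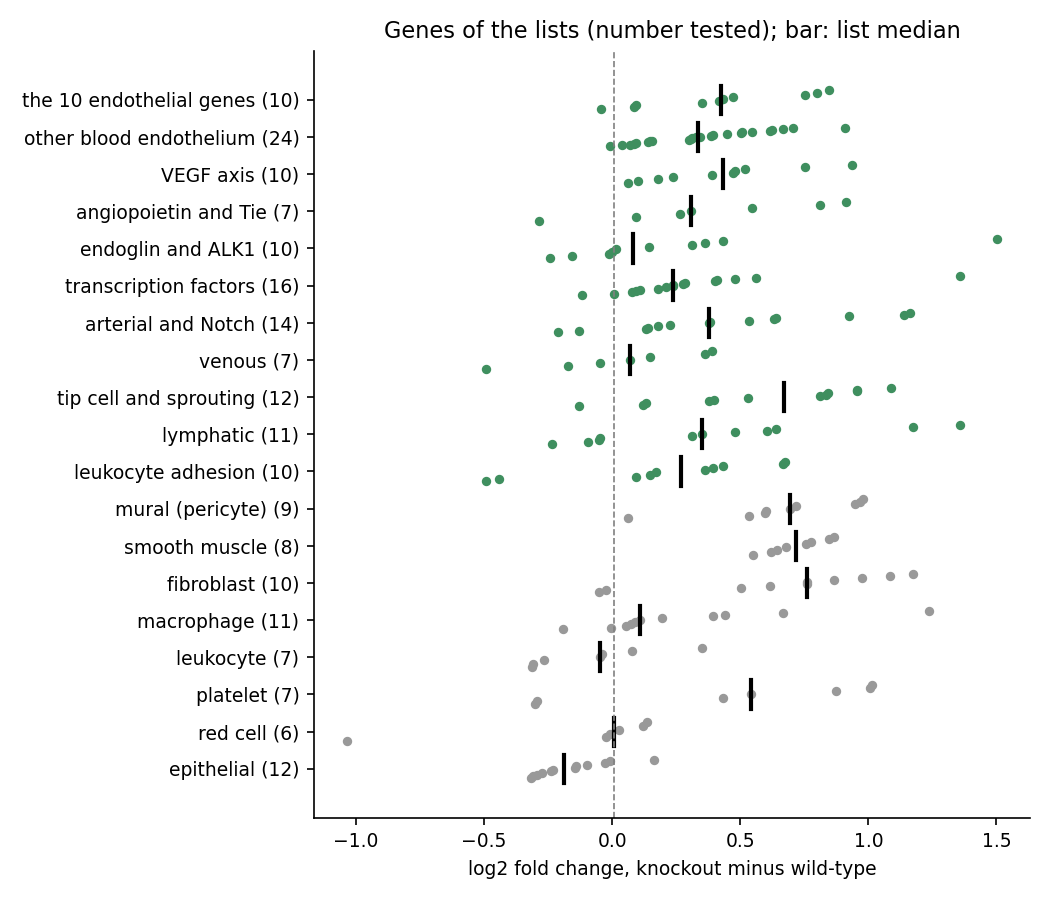
Fitted log2 fold change (knockout minus wild-type) of every tested gene in each list (green for vascular lists, grey for other cell types) with the list median (black bar), and the median of all tested genes as a dashed line. Medians run from -0.19 for epithelial genes to 0.76 for fibroblast genes, with the 10 endothelial genes at 0.42.

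Over the 6 libraries, the genes closest to the mean profile of the 10 were sought among 14529 others with a mean of at least 1 CPM, by the root mean square difference of centred log2 CPM. The closest 8 were Zfp9 (0.045), Clec4a1 (0.047), Knl1 (0.050), Ints8 (0.050), Tlr6 (0.069), Colgalt2 (0.071), Fam49a (0.074) and Stc2 (0.074). None of them is on any of the vascular lists, and the best placed gene of the pan-endothelial list was Robo4, the roundabout receptor of endothelium, at rank 23. Of the 24 pan-endothelial genes, 7 were among the first 1000 of the 14529 ranked genes. Within the 10 themselves, Pecam1 was closest to the mean profile at 0.194 and Tek farthest at 0.637. With 6 libraries, many genes can take a like profile.

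Promoters were read from RefSeq (GRCm38.p6), from 250 bases before to 50 bases after the start, for the 6 of the 10 genes in its table: Kdr, Flt1, Tek, Eng, Cldn5 and Emcn. ETS factors, which drive many endothelial genes, bind a GGAA core, and AGGAAG or CGGAAG was searched on both strands; both motifs hold that core and differ in their first base. Of the 6 promoters, 3 held a match, against 15265 of 32851 promoters in the table (46.5%). Matches lay 129 and 53 bases before the start in Flt1, 52 and 6 in Eng, and 174 and 93 in Emcn. The promoters of Flt1 (chr5:147725962-147726261, minus strand), which has 2 matches, in capitals, and of Tek (chr4:94739039-94739338, plus strand), which has none, are printed because the first is of a gene whose groups did not overlap and the second of the gene that varied most. Emcn, with 2 matches, had the lowest estimate and Flt1, with 2, one of the highest. No promoter could be read for Pecam1, Cdh5, Vwf and Lyve1, and whether the matches bear on the genotype difference was not tested.

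Flt1 promoter: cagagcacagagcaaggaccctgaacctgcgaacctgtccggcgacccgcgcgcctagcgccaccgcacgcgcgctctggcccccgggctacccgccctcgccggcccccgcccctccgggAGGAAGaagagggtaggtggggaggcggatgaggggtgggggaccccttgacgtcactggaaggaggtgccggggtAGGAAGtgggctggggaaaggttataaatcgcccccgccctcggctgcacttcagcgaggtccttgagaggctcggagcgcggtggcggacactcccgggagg

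Tek promoter: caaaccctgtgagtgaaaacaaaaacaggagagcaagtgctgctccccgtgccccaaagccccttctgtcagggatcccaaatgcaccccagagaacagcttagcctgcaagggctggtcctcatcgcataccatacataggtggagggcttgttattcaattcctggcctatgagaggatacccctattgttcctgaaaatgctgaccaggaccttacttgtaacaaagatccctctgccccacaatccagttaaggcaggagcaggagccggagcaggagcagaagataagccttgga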

How the data were processed

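Per the labels' protocols, adenomas were flash frozen and RNA was extracted (RNeasy Plus Mini) for standard Illumina libraries. The deposited values are whole-number read counts per Ensembl gene, 1 table per library; the submitters' processing notes name TopHat2 2.1.0, HTSeq 0.6.1 and mm10. How strand and multiply aligned reads were handled, and which annotation was used, is not given in the sources here. Coordinates are those of the deposited tables; 935 of 46078 identifiers had no symbol in GENCODE M21.

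Groups came from sample titles. The labels call the replicates separate mice. Genes passing filterByExpr (17254) were scaled by TMM (factors 0.914 to 1.09) and compared with edgeR 4.0.16 in R 4.3.3 (quasi-likelihood, robust, Benjamini-Hochberg at 0.05; common biological coefficient of variation 0.293). SE is the log2 fold change over the square root of F. DESeq2 1.42.0 and limma 3.58.1 served as alternatives. Tested on simulated counts of 17254 genes for this comparison, the fit recovered 139 of 200 genes changed by a log2 value of 2, with 158 called. The largest estimate of the 10 was 0.85 (Vwf), so this recovery does not describe changes of their size. No other gene matched the coding transcripts of the 10 at 95% identity over 100 bases (BLAST 2.17.0). Likeness used log2(CPM + 0.5).

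The 10 genes, the lists and the tests were chosen with earlier results of these data known. Named genes are the 10, in each list the smallest p and the most abundant by CPM (of non-endothelial lists only those that bear on the text), and the 8 closest profiles; Robo4, Gdf2, Etv2 and Fpgs were chosen after their values were seen. Limits cover counting error only, since reads carry no molecular identifiers. Alternatives were other scalings, count filters and tests, a replicate block, a sex term, females only and each mouse left out.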

Additional observations from a re-analysis of the deposited data

How the results depend on the processing

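None of the 10 endothelial genes was called in any fit, with a lowest adjusted p of 0.156 to 1.00 over the settings. Genes called over the whole table were 16 in the main setting, 110 with DESeq2, 77 in females alone and 9 to 41 with a mouse left out. The median log2 fold change of the 10 was 0.61 in females alone and 0.27 to 0.59 with a mouse left out, and otherwise 0.41 to 0.52; library size alone moved the median of all genes to 0.077. The number of the 10 above 0 was 7 to 10. The number without overlap was 4 with library size alone (adding Kdr), where 5.37% of all genes did not overlap in the higher direction. It was 6 in females alone and 3 to 6 with a mouse left out, but apart from small shifts in scaling, leaving mice out cannot lower this number. Without knockout mouse 3, wild-type mouse 1 or wild-type mouse 2 it was 3, with backgrounds of 7.27%, 12.3% and 8.41%. In females alone 25.8% of all genes did not overlap in that direction. Tek was -0.092 with limma-voom, -0.074 with the replicate block and -0.068 with a sex term. With a mouse left out, Tek ran from -0.43 to 0.47, Cldn5 from -0.083 to 0.19, Emcn from -0.21 to 0.19, Lyve1 from 0.10 to 0.60, Eng from 0.23 to 0.58, Pecam1 from 0.24 to 0.64, Kdr from 0.31 to 0.60, Flt1 from 0.51 to 0.91, Vwf from 0.60 to 1.02 and Cdh5 from 0.61 to 1.17, and Emcn was 0.041 with library size alone. Ratios with Pecam1 in place of Cdh5 turned to 0.037 for Kdr, 0.30 for Flt1 and 0.0053 for Eng, and with a mouse left out the ratio to Cdh5 ran from -0.36 to 0.16 for Flt1 and from -0.18 to 0.34 for Vwf. The cause was not tested. Same-numbered libraries of the groups correlated at 0.22, 0.27 and 0.081, and every library but knockout mouse 3, which was closest to wild-type mouse 1, correlated best with its own number in the other group; as 1 pair lay below 0.1, the numbers were not taken as pairs; with the replicate block 14 genes were called, the median of the 10 was 0.44 and 6 of them were higher at an unadjusted p below 0.05, as were 5.27% of all genes in that fit. Cldn5 rested on the fewest counts, 436 in all.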
